A study of Saccharomyces cerevisiae with 32 samples.

Results

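The 34 genes described here carry out sulfate assimilation and the synthesis, uptake and control of methionine, S-adenosylmethionine and cysteine in the budding yeast Saccharomyces cerevisiae. They were chosen by their known function, with earlier results of these data known, and MET17 is treated apart from the other 33. All 34 were found on the array by systematic name among 6225 names, each with 1 probe, and all 34 were among the 6205 genes tested. By role, 2 genes serve sulfate uptake, 8 serve sulfate activation and reduction, 2 serve the incorporation of sulfide, and 3 lead from aspartate to homoserine. Another 5 make methionine and S-adenosylmethionine, 4 interconvert cysteine and homocysteine, 4 are permeases for methionine and its derivatives, and 6 encode regulators.

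Yeast takes up sulfate, activates it with ATP, and reduces it through sulfite to sulfide. Sulfide is joined to O-acetylhomoserine to give homocysteine, which is either methylated to methionine, the precursor of the methyl donor S-adenosylmethionine, or turned into cysteine and then glutathione. The activator Met4, which binds promoters through Cbf1, Met28, Met31 and Met32, drives most of these genes when sulfur amino acids run short, and the ubiquitin ligase subunit Met30 restrains Met4.

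The phosphomutant strain, 4P, carries epitope-tagged mutant alleles of 4 S-phase transcription factor genes: yhp1-13A-13MYC and yox1-9A-3V5, for a pair of related repressors, tos4-9A-3FLAG and hcm1-15A-3HA. Its control, WT, carries the same tags on unmutated genes (YHP1-13MYC, YOX1-3V5, TOS4-3FLAG and HCM1-3HA). Cells of both strains spent 2 h in alpha-factor, the pheromone that arrests them in G1, and after release were collected at 0, 15, 30, 45, 60, 75, 90 and 105 min; each genotype is a single strain, and each time course was run in duplicate, so a group holds 2 arrays. The common reference on every array was RNA from an untagged strain (YHP1 YOX1 TOS4 HCM1) in asynchronous mid-log growth, so the tags are shared by 4P and WT and absent from the reference. Every level below is a log2 ratio of the synchronised sample over that reference, and 0 means the reference level. Replicate 1 labelled the synchronised sample with Cy3 and replicate 2 with Cy5, so replicate and dye cannot be told apart, and arrays of 1 genotype and replicate belong to 1 time course and are not separate cultures.

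In the synchronised channel of the 32 arrays, 94.8% to 99.6% of spots passed the scanner's test for signal well above background. Outlier-marked spots numbered 1761 on the array of 4P at 105 min, replicate 1, and 526 on that of 4P at 15 min, replicate 1; the spots of HOM3 were among them on both arrays, and it has no value there. Replicate arrays of a group correlated over all genes at 0.586 to 0.918, lowest for 4P at 105 min. All 6 a-cell genes checked (MFA1, MFA2, STE2, STE6, AGA2 and BAR1) changed over time in 4P and in WT, with their highest level at 0 min in each. Of 4 alpha-cell genes checked, 0 changed over time in 4P and 2 did in WT, STE3 and SAG1. At 0 min these read 1.01 and 0.80 in WT, their highest means there, and 0.04 and 0.15 in 4P. MFA2, STE6, BAR1 and STE3 were each called different between the genotypes at 1 time. The S-phase histone gene HTA1 was highest at 30 min and the mitotic cyclin gene CLB2 at 45 min in both genotypes. The other genes checked for stage, CLN2 and SIC1, had different highest times in the genotypes. CLN2 was highest at 15 min in 4P (0.99, and 0.64 at 75 min) and at 75 min in WT (1.49, and 0.87 at 15 min). SIC1 was highest at 75 min in 4P and 60 min in WT, and was called different between the genotypes at 1 time.

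Most of these genes changed after release, and most that changed were highest at 30 or 45 min. Of the 33 members other than MET17, 24 changed over the time course in 4P and 22 in WT, at an adjusted p under 0.05 in limma's F test over the 8 times. The background was 40.4% of all genes tested in 4P and 35.6% in WT. The 22 called in WT were all called in 4P as well, where 28.4% of all genes tested were called in both, and HOM3 and CYS3 were called in 4P alone. A fit with replicate number gave 26 in 4P (background 55%) and 25 in WT (50.2%). Whether those 2 differ between genotypes is a separate question, answered below by the test of the difference itself. The median range over time of the 33 was 1.49 in 4P and 1.36 in WT, against 0.63 and 0.61 for all genes. Each sample is a whole culture, so a change of RNA per cell and a change in the share of cells at a stage cannot be told apart. With 1 array left out, SUL2 (adjusted p up to 0.177 without either 4P array at 45 min), HOM3 (0.0529 without 4P at 75 min, replicate 2), CYS3 (0.0553 without 4P at 45 min, replicate 2) and CYS4 (up to 0.107, with 18 arrays) lost their call in 4P. In WT this held for MET32 (0.116 without 30 min, replicate 1) and MET30 (up to 0.123 without 15 min, replicate 2, or 30 min, replicate 1). Other starting values mattered for some of the same genes: with scanner ratios the adjusted p was 0.0985 for SUL2, 0.553 for HOM3 and 0.387 for CYS4 in 4P, and 0.303 for CYS4 and 0.0715 for MET30 in WT. The deposited table also put SUL2 (0.0870), HOM3 (0.392) and CYS4 (0.259) in 4P and MET30 (0.0680) in WT above 0.05, as median centring did for SUL2 (0.121) and HOM3 (0.181) in 4P and CYS4 (0.102) in WT. The other 20 in each genotype stayed past the threshold with any of the 32 arrays left out.

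**Figure D1:**
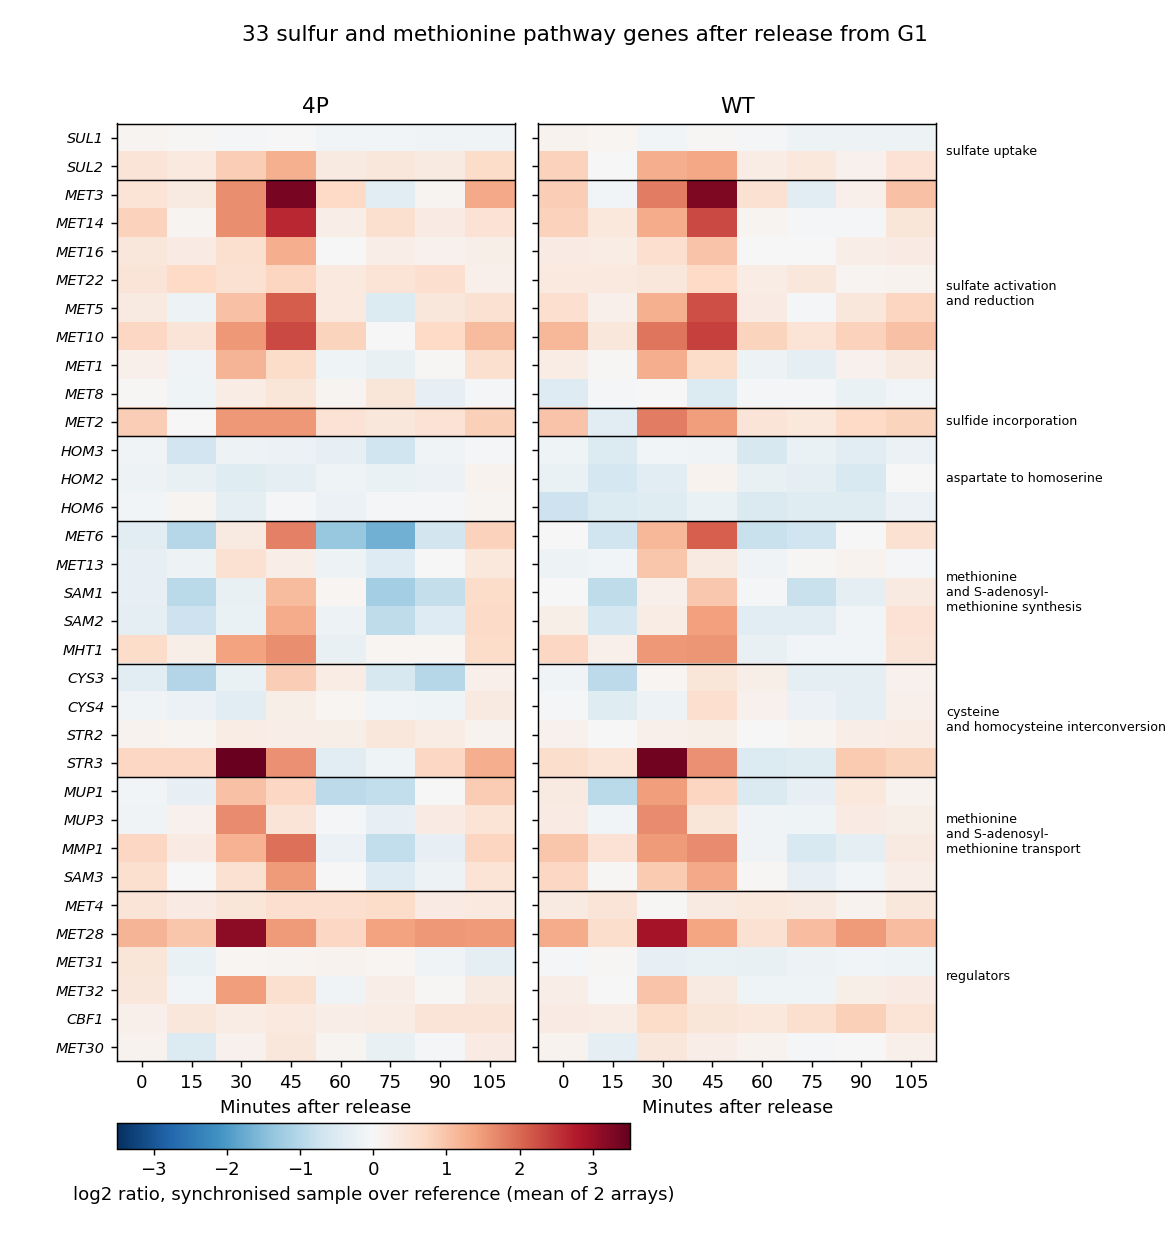
Mean log2 ratio of the synchronised sample over the reference (colour, mean of 2 arrays) for the 33 members other than MET17 (rows, grouped by role), against minutes after release (columns), with 4P on the left and WT on the right. STR3 and MET28 are darkest at 30 min (3.47 and 3.14 in 4P, 3.39 and 2.92 in WT) and MET3 at 45 min (3.31 in 4P, 3.26 in WT).

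Of the pair of sulfate permease genes, SUL2 was highest at 45 min in the mean of both genotypes. Its arrays there read 1.14 and 1.34 in 4P and 1.58 and 1.11 in WT, against 0.28 and 0.42 in 4P and 0.23 and -0.22 in WT at 15 min. In 1 of the 4 time courses, WT replicate 1, the highest value came at 30 min (1.66). SUL1, the other permease, stayed between -0.28 and 0.31 on all 32 arrays and was called in neither genotype (adjusted p 0.872 in 4P and 0.582 in WT). It was well above background on 16 of 16 4P arrays and 15 of 16 WT arrays.

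Of the 8 genes of sulfate activation and reduction, 6 changed over time in 4P and the same 6 in WT. MET3 encodes ATP sulfurylase, which starts the pathway. It read 3.23 and 3.39 at 45 min in 4P and 3.52 and 3.01 in WT, against 0.41 and 0.22 at 15 min in 4P and 0.08 and -0.30 in WT. MET3 read 0.68 and 0.30 at 0 min in 4P and 1.03 and 0.72 in WT, and 1.92 and 1.33 at 30 min in 4P and 2.30 and 1.26 in WT. By 75 min MET3 was below the reference on all 4 arrays, at -0.29 and -0.46 in 4P and -0.26 and -0.55 in WT. The 45 min arrays lay above those of every other time, and 4P and WT overlapped at 45 min. At 60 min it read 0.75 and 0.64 in 4P and 0.49 and 0.57 in WT, at 90 min 0.10 and 0.11 in 4P and 0.41 and -0.05 in WT, and at 105 min 1.30 and 1.36 in 4P and 1.24 and 0.84 in WT. The change over time had an adjusted p of 4.82e-09 in 4P and 3.19e-09 in WT.

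MET14 encodes the adenylylsulfate kinase that acts after Met3. It read 2.63 and 2.62 at 45 min in 4P and 2.26 and 2.38 in WT, and fell by 2.38 (SE 0.29) in 4P and by 2.24 (SE 0.29) in WT by 60 min. MET16, the reductase of the activated sulfate, read 1.22 and 1.34 in 4P and 0.82 and 1.20 in WT at 45 min, the highest time of both means. It fell by 1.27 (SE 0.18) in 4P and by 1.02 (SE 0.18) in WT by 60 min. These folds rest on means of 2 arrays of opposite dye.

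MET5 and MET10 encode the subunits of sulfite reductase. At 45 min MET5 read 2.04 and 2.19 in 4P and 2.38 and 2.16 in WT. MET10 read 2.24 and 2.37 in 4P and 2.55 and 2.22 in WT at that time. The 2 subunit genes thus had nearly the same 45 min ratio, with 4P and WT overlapping for each. At 75 min MET5 stood at -0.57 and -0.41 in 4P and 0.01 and -0.11 in WT, and MET10 stood at 0.03 and -0.05 in 4P and 0.63 and 0.31 in WT.

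The siroheme cofactor of sulfite reductase is made by Met1 and Met8, whose genes did not share a pattern. MET1 was highest at 30 min in all 4 time courses, at 1.51 and 0.88 in 4P and 1.53 and 1.01 in WT, and stood at 0.75 and 0.51 in 4P and 0.69 and 0.59 in WT by 45 min. MET8 ranged from -0.47 to 0.57 in 4P and from -0.69 to 0.30 in WT and was called over time in neither (adjusted p 0.191 in 4P and 0.602 in WT). MET22, the phosphatase that clears the nucleotide by-product of sulfate reduction, ranged over 0.58 in 4P and 0.60 in WT. It was not called (adjusted p 0.356 and 0.352), but with replicate number in the fit it was (0.0348 in 4P and 0.0332 in WT).

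MET2 encodes the homoserine O-acetyltransferase that makes the acceptor of sulfide. It dipped to -0.02 and 0.06 at 15 min in 4P and to -0.47 and -0.25 in WT, below both arrays at 0 min (0.87 and 0.88 in 4P, 0.90 and 1.11 in WT). At 30 min it read 1.78 and 1.24 in 4P and 2.02 and 1.53 in WT. The step to 30 min was 1.49 (SE 0.18) in 4P and 2.14 (SE 0.18) in WT, with adjusted p values of 3.82e-06 and 3.11e-08. MET2 then kept most of that level at 45 min, with means of 1.51 in 4P and 1.46 in WT. Its mean was highest at 30 min in WT, while in 4P the means at 30 and 45 min were nearly equal, at 1.511 and 1.513.

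The genes that lead from aspartate to homoserine, shared with threonine synthesis, moved little. HOM3, aspartate kinase, ranged over 0.63 in 4P (adjusted p 0.00712) and 0.46 in WT (0.0611, and 0.0364 with replicate number in the fit). Its lowest means were -0.70 at 75 min in 4P and -0.55 at 60 min in WT, and at 15 and 105 min the 4P mean rests on 1 array. At 75 min its arrays read -0.60 and -0.81 in 4P and -0.15 and -0.33 in WT. HOM2, aspartate semialdehyde dehydrogenase, lay between -0.45 and 0.52 in 4P and between -0.65 and 0.39 in WT. HOM6, homoserine dehydrogenase, lay between -0.41 and 0.20 in 4P and between -1.06 and 0.07 in WT. Neither was called over time in either genotype, and HOM6 had saturated spots on some arrays.

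All 5 genes of methionine and S-adenosylmethionine synthesis changed over time in 4P and in WT. MET6, methionine synthase, had the widest swing among them. It read 1.57 and 1.94 at 45 min in 4P and 2.04 and 2.16 in WT. By 60 min it was at -1.24 and -1.40 in 4P and -0.88 and -0.66 in WT, and the step from 45 min was -3.08 (SE 0.34) in 4P and -2.87 (SE 0.34) in WT, with adjusted p values of 8.07e-06 and 5.45e-06. All 4 arrays at 60 min were below the reference and all 4 at 45 min were far above it.

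SAM1 and SAM2 encode the near-identical S-adenosylmethionine synthetases, so their probes may share signal. SAM1 read 0.92 and 1.28 at 45 min in 4P and 1.33 and 0.58 in WT, and SAM2 read 1.05 and 1.57 in 4P and 2.03 and 0.85 in WT. At 15 min all 4 arrays were below the reference for each gene, with SAM1 at -0.82 and -1.10 in 4P and -0.74 and -1.04 in WT. The replicates of WT at 45 min were far apart for SAM2, and the 4P arrays lay between them. MHT1 encodes the enzyme that makes methionine from S-methylmethionine. Its 45 min arrays read 1.498 and 1.75 in 4P and 1.79 and 1.28 in WT, and its 60 min arrays -0.36 and -0.16 in 4P and -0.32 and -0.18 in WT. At 30 min MHT1 read 1.56 and 1.23 in 4P and 1.99 and 1.03 in WT. In both genotypes it was highest at 30 min in replicate 1 and at 45 min in replicate 2. MET13, the methylenetetrahydrofolate reductase that supplies the methyl group to Met6, was instead highest at 30 min in all 4 courses, at 0.73 and 0.34 in 4P and 1.19 and 0.73 in WT.

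Among the genes that interconvert cysteine and homocysteine, STR3, cystathionine beta-lyase, which runs toward homocysteine, had the largest range of all 33 members, 3.83 in 4P and 3.88 in WT. It read 0.79 and 0.68 at 0 min in 4P and 0.61 and 0.60 in WT, and 0.40 and 1.07 at 15 min in 4P and 0.42 and 0.55 in WT. At 30 min it read 3.71 and 3.24 in 4P and 3.79 and 2.99 in WT, and by 45 min 1.64 and 1.58 in 4P and 1.57 and 1.63 in WT. At 60 min all 4 arrays were below the reference, at -0.45 and -0.27 in 4P and -0.37 and -0.60 in WT. The 30 min arrays stood above those of every other time, and the genotypes overlapped. STR3 then stood at -0.17 and -0.10 in 4P and -0.44 and -0.41 in WT at 75 min. It was back above the reference on all 4 arrays at 90 min (0.61 and 0.85 in 4P, 1.15 and 0.68 in WT) and at 105 min (1.23 and 1.31 in 4P, 0.90 and 0.63 in WT). The rise to 30 min was 2.74 (SE 0.22, adjusted p 1.79e-08) in 4P and 2.91 (SE 0.22, adjusted p 1.99e-08) in WT. The fall to 45 min was -1.86 (SE 0.22, adjusted p 5.06e-06) in 4P and -1.79 (SE 0.22, adjusted p 8.10e-06) in WT.

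The other 3 genes of this group did not follow STR3. CYS3, cystathionine gamma-lyase, was highest at 45 min in the mean, at 0.81 and 0.94 in 4P and 1.11 and -0.24 in WT. It was called over time in 4P (adjusted p 0.0130) and not in WT (0.210), where the replicates at 45 min lay 1 on each side of the reference. CYS4, cystathionine beta-synthase, read 0.36 and 0.07 at 45 min in 4P and 0.48 and 0.68 in WT, against -0.33 and -0.40 at 30 min in 4P and -0.16 and -0.21 in WT. It was called in both with small ranges, 0.66 in 4P (adjusted p 0.0428) and 1.00 in WT (0.00153), and had saturated spots on some arrays; neither call held with scanner ratios, as given above. STR2, cystathionine gamma-synthase, ranged over 0.31 in 4P and 0.26 in WT and was called in neither.

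All 4 permease genes for methionine and its derivatives changed over time in both genotypes. MUP3, the low-affinity methionine permease, read 1.67 and 1.64 at 30 min in 4P and 1.83 and 1.497 in WT, then 0.37 and 0.54 at 45 min in 4P and 0.66 and 0.19 in WT. MUP1, the high-affinity methionine permease, read 1.11 and 0.95 at 30 min in 4P and 1.53 and 1.40 in WT. At 60 min it read -0.70 and -1.15 in 4P and -0.68 and -0.36 in WT. MMP1, the S-methylmethionine permease, was highest at 45 min in all 4 courses, at 1.92 and 1.92 in 4P and 1.77 and 1.52 in WT. SAM3, the S-adenosylmethionine permease, was highest at 45 min too, at 1.33 and 1.67 in 4P and 1.61 and 1.07 in WT. In the means of both genotypes the methionine permease genes thus stood highest at 30 min, and those for the methylated derivatives at 45 min.

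Of the 6 regulators, MET28, MET32 and MET30 changed over time in both genotypes and MET4, MET31 and CBF1 in neither. MET28, a cofactor of Met4, read 3.25 and 3.03 at 30 min in 4P and 3.31 and 2.54 in WT, and stayed above the reference on all 32 arrays. The lowest of these was 0.32, in WT at 60 min. At 15 min it read 0.35 and 1.61 in 4P, replicates far apart, and 0.69 and 0.51 in WT, and at 45 min 1.34 and 1.66 in 4P and 1.55 and 1.22 in WT. Its rise from 15 to 30 min was 2.16 (SE 0.30) in 4P and 2.32 (SE 0.30) in WT. MET32, which encodes a DNA-binding partner of Met4, read 1.60 and 1.34 at 30 min in 4P and 1.19 and 0.79 in WT. All 4 of its 30 min arrays lay above all 28 others.

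MET31, the paralog of MET32, showed no such peak. At 30 min it read 0.19 and -0.04 in 4P and -0.27 and -0.30 in WT, and its change over time had adjusted p values of 0.0580 in 4P (0.0134 with replicate number in the fit) and 0.795 in WT. MET4, the activator itself, lay between 0.06 and 0.84 on the 4P arrays and between -0.04 and 0.60 on the WT arrays. CBF1 lay between 0.07 and 0.62 on the 4P arrays and between -0.04 and 0.87 on the WT arrays. For CBF1 in WT the adjusted p was 0.199, and 0.0482 with replicate number in the fit. MET30, which restrains Met4, was lowest at 15 min (-0.39 and -0.55 in 4P, -0.25 and -0.38 in WT) and ranged over 0.86 in 4P and 0.70 in WT.

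**Figure D2:**
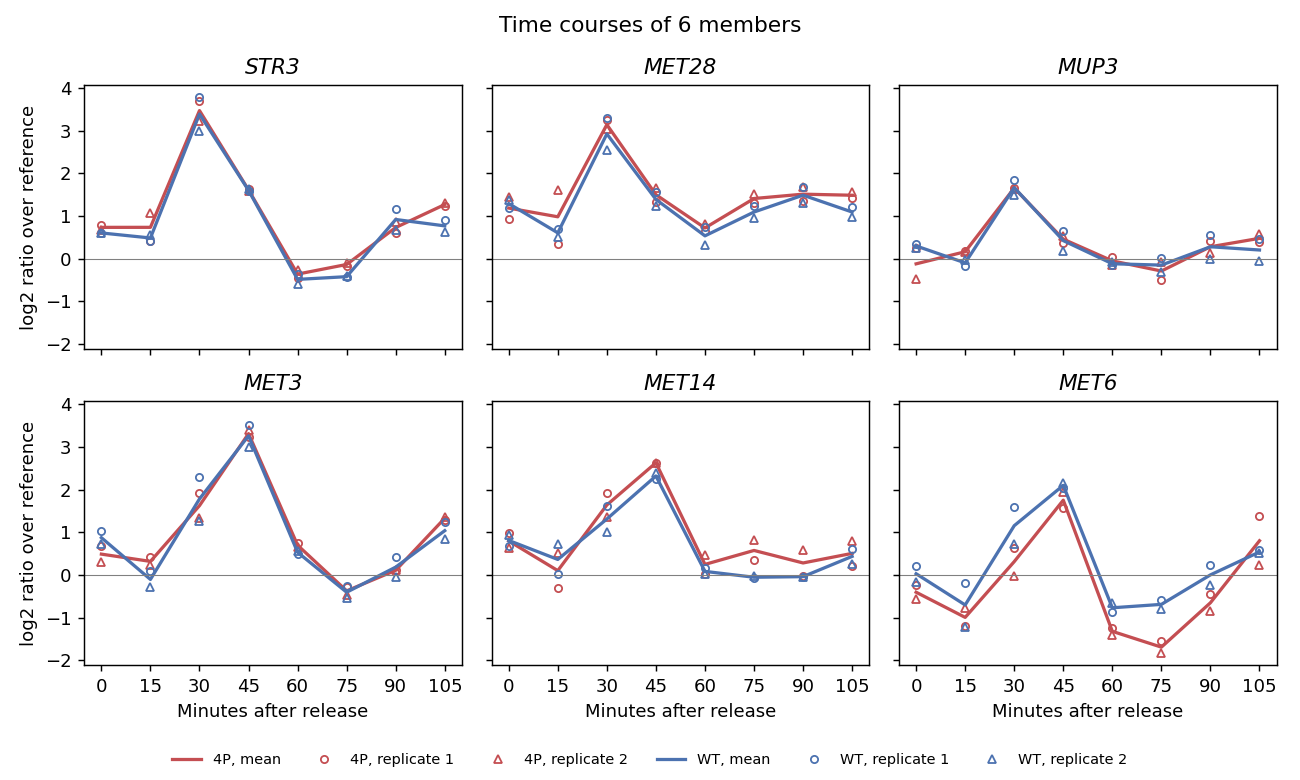
Log2 ratio over the reference (vertical axis) against minutes after release (horizontal axis) for 6 members, with 4P in red and WT in blue; lines join the means of 2 arrays, circles are replicate 1 and triangles replicate 2. STR3, MET28 and MUP3 (upper row) were highest at 30 min, and MET3, MET14 and MET6 (lower row) at 45 min.

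The highest time split the 22 genes called in both genotypes. In the means, 7 were highest at 30 min in 4P and in WT (MET1, MET13, STR3, MUP1, MUP3, MET28 and MET32). Another 12 were highest at 45 min in both (SUL2, MET3, MET14, MET16, MET5, MET10, MET6, SAM1, SAM2, MHT1, MMP1 and SAM3). The highest times of MET2, CYS4 and MET30 differed between the genotype means, which was not tested. For MET2 the 4P means at 30 and 45 min were nearly equal. For CYS4 the 4P mean was highest at 105 min, on arrays of 0.59 and 0.01. For 14 of the 22 the same time was highest in all 4 time courses taken singly. The 30 min group holds 2 of Met4's partners, and the 45 min group holds 5 of the 8 enzymes of sulfate activation and reduction.

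Neighbouring times were also tested against each other. From 15 to 30 min, 16 of 33 members rose in 4P and 19 in WT, where 6% of all genes tested rose in 4P and 10.6% in WT. No member fell, against 7.69% of all genes in 4P and 9.73% in WT. Without 4P at 30 min, replicate 1, the count in 4P was 10. From 45 to 60 min, 14 members fell in 4P and 15 in WT, against backgrounds of 1.27% and 2.64%, and with any array left out these counts stayed between 12 and 15 in 4P and 13 and 16 in WT. No member rose in that step in either genotype, adjusted or at an unadjusted p under 0.05 in limma's test, against 1.8% of all genes adjusted and 6.4% unadjusted in 4P, and 3.26% and 8.03% in WT.

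The step from 30 to 45 min held changes in both directions. In 4P 11 members rose (background 3.11%) and 4 fell (4.87%), and in WT 4 rose (1.85%) and 4 fell (3.17%). STR3, MUP3 and MET28 fell in both genotypes. MET3 rose by 1.69 (SE 0.26, adjusted p 0.000126) in 4P and by 1.48 (SE 0.26, adjusted p 0.000667) in WT. MET14, SAM2 and CYS4 were also called higher in each. Leaving out 30 min, replicate 2, or either array at 45 min moved the rising count in both genotypes. It dropped to 1 in 4P without 45 min, replicate 2, and to 0 in WT without 30 min, replicate 2, where MET3 had an adjusted p of 0.0532; without WT at 30 min, replicate 1, 2 members fell in WT and MET28 had an adjusted p of 0.0747. The fit with replicate number had 7 members rise in WT (background 2.97%).

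From 0 to 15 min no member rose in either genotype, against 8.7% of all genes in 4P and 9.15% in WT, and 5 fell in 4P (background 5.77%) and 6 in WT (8.07%). MET2 and SAM3 were in both sets, and MET2 fell by 0.85 (SE 0.18) in 4P and by 1.37 (SE 0.18) in WT. The 4P count moved without either array at 0 min or replicate 1 at 15 min, to as few as 1 without 0 min, replicate 1. The WT count was 2 without 0 min, replicate 1, or 15 min, replicate 2. In WT 10 members fell once replicate number was in the fit (background 11.8%).

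Later steps held fewer calls. From 60 to 75 min MET3, MET10, SAM1 and MMP1 fell in 4P (background 3.5%) and MET3 alone in WT (1.9%), and no member rose (7.4% of all genes in 4P, 4.03% in WT). Without either 4P array at 75 min or replicate 1 at 60 min, 1 member fell in 4P, and with any of the 4 WT arrays at these times left out none did in WT. A fit with replicate number had 7 members fall in 4P (6.49%).

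From 75 to 90 min MET10, HOM3, STR3 and MUP1 rose in 4P (background 1.85%) and STR3 in WT (1.63%). No member fell after adjustment (2.79% in 4P, 2.43% in WT). With replicate number in the fit 7 rose in 4P (4.83%) and 2 in WT (2.43%). Each of the 4 arrays moved the 4P count, to 0 without either array at 75 min or replicate 1 at 90 min. From 90 to 105 min none fell (2.4% of all genes in 4P, 1.39% in WT), and 7 members rose in 4P (background 1.51%), namely MET3, MET6, SAM1, SAM2, MUP1, MMP1 and SAM3. In WT 0 rose by limma's test after adjustment (background 0.983%) and 5 at an unadjusted p under 0.05 (4.03% of all genes). Replicate number in the fit gave 2 that rose in WT (1.39%). Without 4P at 105 min, replicate 1, the array with the most outlier-marked spots, or without 4P at 90 min, replicate 2, the 4P count was 1, and it moved without 90 min, replicate 1, as well. MMP1 kept its call with any array left out, with arrays of 0.59 and 0.93 at 105 min against -0.21 and -0.34 at 90 min in 4P. STR3 rose between 75 and 90 min in WT, by 1.34 (SE 0.22, adjusted p 0.000647), reading 1.15 and 0.68 at 90 min. In 4P its rise in that step was 0.87 (SE 0.22, adjusted p 0.0272, and 0.105 to 0.168 with any of the 4 4P arrays of those times left out).

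Among genes outside the list, those most like the mean of the 7 sulfate reduction enzyme genes (MET1, MET3, MET5, MET8, MET10, MET14 and MET16) were found by Pearson correlation over the 32 arrays, which share their reference and times. MXR1, a methionine sulfoxide reductase gene, came highest, at r = 0.880, with means at 45 min of 2.16 in 4P and 1.92 in WT. The next 9 were DHR2 (0.863), YNL095C (0.862), NVJ3 (0.820), GSH1 (0.819), YNL276C (0.814), YLR338W (0.788), RIX1 (0.783), TVS1 (0.781) and TRM13 (0.770). GSH1 encodes the enzyme that starts glutathione synthesis from cysteine. Its 45 min means of 0.62 in 4P and 0.41 in WT were well below those of MXR1, and GSH1 was called over time in 4P (adjusted p 0.0155) and not in WT (0.240). Among the 33 members themselves, the 528 pairwise correlations over the arrays ran from -0.65 to 0.96, with a median of 0.35.

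Of 20 further genes of sulfur metabolism, chosen with earlier results known, 9 changed over time in 4P and 5 in WT, against the backgrounds of 40.4% and 35.6% given above. OPT1, a glutathione transporter gene, had ranges of 1.20 in 4P and 1.46 in WT. SSU1, the sulfite exporter gene, and SOA1, a transporter gene for sulfur compounds, were highest at 15 min in both genotypes. SSU1 ranged over 1.70 in 4P and 1.29 in WT. BDS1, a sulfatase gene, was highest at 0 min in both genotypes.

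MET17 differed between the genotypes as no other member did. It encodes the O-acetylhomoserine sulfhydrylase that joins sulfide to O-acetylhomoserine. In 4P its ratios were 5.94 and 4.03 at 0 min, 4.11 and 3.93 at 15 min, 5.64 and 4.21 at 30 min, and 5.46 and 4.37 at 45 min. The later 4P values were 5.39 and 4.42 at 60 min, 4.30 and 3.38 at 75 min, 4.997 and 4.00 at 90 min, and 4.35 and 4.10 at 105 min. On the 16 WT arrays the ratio lay between -0.04 and 0.26, with a median of 0.11. Every 4P array was above every WT array by more than the spread within either, and in 4P replicate 1 was the higher of the pair at each of the 8 times.

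The difference, 4P minus WT, was 4.86 at 0 min, 3.80 at 15 min, 4.86 at 30 min and 4.77 at 45 min, and then 4.85 at 60 min, 3.75 at 75 min, 4.43 at 90 min and 4.17 at 105 min (SE 0.49 at each time). Adjusted p values ran from 1.08e-05 to 0.000879. The background was low: 0.0161% of all genes tested were called higher in 4P at 45, 60 and 90 min, a single gene each time, which was MET17. At the other times the share called higher was 0.0483% at 0 min, 0.0967% at 15 min, 0.0322% at 30 min, 2.68% at 75 min and 0.0645% at 105 min. MET17 kept its call at all 8 times with any array left out, with adjusted p values of up to 0.0400. Over the whole course, with each time course averaged to 1 value, the shift was 4.44 (adjusted p 0.0145). It was the largest of 6205 genes and the only one called (0.0161%), and with median centring in place of loess its adjusted p was 0.0786.

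**Figure D3:**
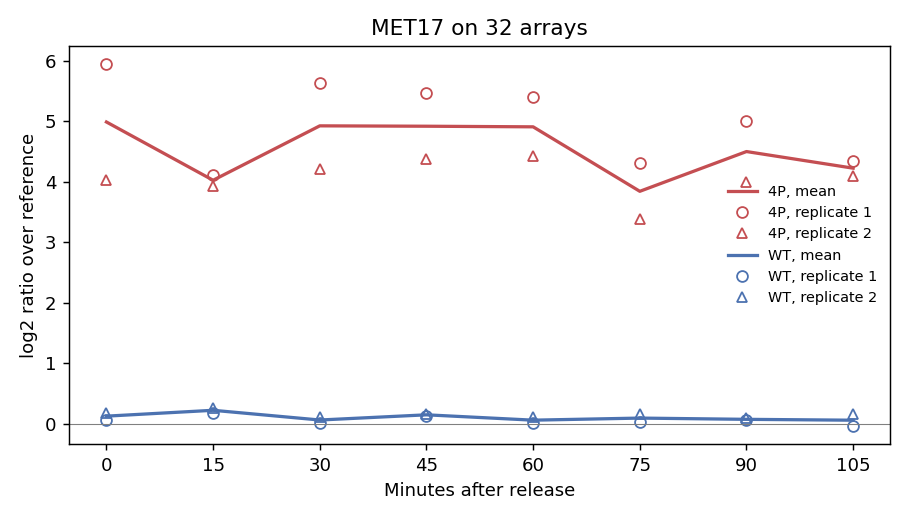
MET17 log2 ratio over the reference (vertical axis) against minutes after release (horizontal axis) on all 32 arrays, with 4P in red and WT in blue; lines join the means of 2 arrays, circles are replicate 1 and triangles replicate 2. The 4P arrays lie between 3.38 and 5.94 and the WT arrays between -0.04 and 0.26.

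The signals behind these ratios show where MET17 RNA was measured. The synchronised channel read 24.5 to 792 times its local background on the 4P arrays (median 63.2) and 1.24 to 3.70 times on the WT arrays (median 2.24). Negative-control spots read a median of 1.23 times background in that channel on the 4P arrays and 1.32 on the WT arrays. The reference channel was also low, at a median of 5.07 times background on the 4P arrays and 2.41 on the WT arrays. The synchronised signal of MET17 was well above background on 16 of 16 4P arrays and 11 of 16 WT arrays. At 0 min neither WT array was, so the difference of 4.86 there rests on a WT signal not well above background. In the normalised signal of the synchronised channel, MET17 at 0 min was at least 46.8-fold higher in 4P. This figure is not divided by the reference channel, so it is no bound on the ratio, and its normalisation drew on both channels. The reference log2 signal at 0 min was 7.48 and 7.29 on the 4P arrays and 6.55 and 6.69 on the WT arrays. The 46.8-fold figure takes the mean normalised 4P signal. It is set against the higher, on each WT array, of the lowest signal well above background and the signal of MET17 itself. The WT ratio near 0 therefore compares a pair of faint signals.

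MET17 was called over time in neither genotype. In 4P it ranged over 1.15 (adjusted p 0.235), with the lowest mean, 3.84, at 75 min, which was also the lowest time of 11 of the 22 members called in both genotypes. Its highest mean ratio, 4.99, was at 0 min, and at 45 min, when MET3 stood highest, MET17 read 4.92. The ratio and the signals differed here. In the normalised synchronised channel alone, the 4P mean was highest at 45 min (log2 13.53, against 12.37 at 0 min and 11.02 at 75 min). The reference signal on the 4P arrays was also highest at 45 min in each replicate (8.95 and 8.28, against 7.48 and 7.29 at 0 min). The cause was not tested. In WT its signal was too near background for a course to be read.

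Slides nearly coincided with genotype, and only 1 slide held both. On it MET17 read 5.46 in 4P and 0.12 in WT at 45 min, replicate 1 of each, and 5.94 in 4P (replicate 1) and 0.18 in WT (replicate 2) at 0 min. With slide in the fit, the differences over the 8 times ran from 4.32 to 5.44. The next largest whole-course shift was that of LYS2, the lysine synthesis gene, at -2.32 (adjusted p 0.261), and it was called at 5 single times. MET17 and LYS2 are both known as auxotrophic markers of laboratory yeast. Of the other marker genes checked, HIS3 shifted by 1.26 (adjusted p 0.427 in limma's test) and LEU2 by 0.52 (0.492). TRP1, ADE2 and CAN1 shifted by -0.10, -0.02 and -0.14, and URA3 was not tested. None of these was called different at a single time. LEU2 and HIS3 stood far above the reference in both genotypes, at 5.19 and 4.64 in 4P and 4.65 and 3.45 in WT at 45 min. The labels give no marker genotype for either strain, so the 4 mutant alleles and any other difference between the strains cannot be told apart for MET17.

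In the fit without replicate number, the other 33 members were not called different between the genotypes at any time. With replicate number in the fit, or with scanner or deposited ratios, some were called, as given below. At no single time was any called by limma's test after adjustment, higher or lower, where the share of all genes called lower was 0.0645% at 0 min, 0.0161% at 15 min, 0.0645% at 30 min and 0.145% at 45 min. It was 0.435% at 60 min, 2.3% at 75 min, 0.0161% at 90 min and 0.306% at 105 min, and the shares called higher stand above. Nor was any called for a difference that depended on time (0.0806%) or for a shift over the whole course (0.0161% higher and 0% lower). At an unadjusted p under 0.05, single times gave between 0 and 6 members of 33, most at 75 min, where 1 was higher (13.1% of all genes were) and 5 were lower (10.67% of all genes were). At 30 min 1 was higher (6.66% of all genes) and 4 were lower (5.87%). At 105 min 4 were higher (4.16%) and 0 lower (4.37%). Median differences over the 33 were small, from -0.11 at 30 min to 0.14 at 105 min, against medians over all genes of -0.01 and 0.00 at those times. At 105 min 27 of the 33 were higher in 4P and 6 lower, while at 0 min 10 were higher and 23 lower and at 30 min 11 were higher and 22 lower. The counts higher and lower were 16 and 17 at 15 min, 20 and 13 at 45 min, and 22 and 11 at 60 min. They were 19 and 14 at 75 min and 15 and 18 at 90 min. Shares of all genes by sign were not taken. Members were correlated with each other (median r 0.35), so these counts are not of separate observations. The 105 min means include the 4P array with the most outlier-marked spots. The peak values lay close together, with STR3 at 3.47 in 4P and 3.39 in WT and MET3 at 3.31 in 4P and 3.26 in WT.

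**Figure D4:**
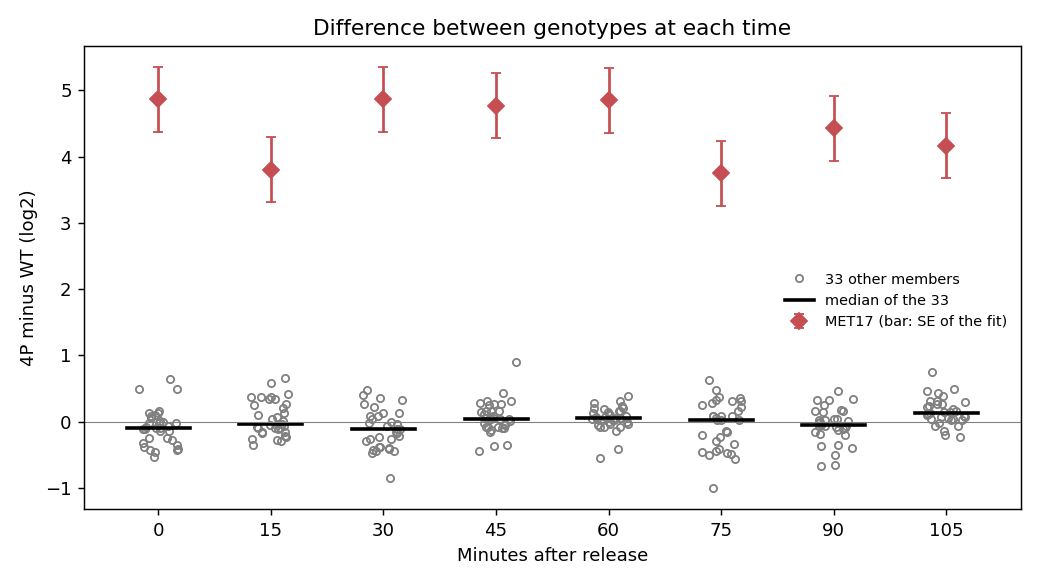
Difference in log2 ratio, 4P minus WT (vertical axis), at each time after release in minutes (horizontal axis); open circles are the 33 other members, black bars their median, and red diamonds MET17 with the SE of the fit. MET17 lies between 3.75 and 4.86, and the 33 others lie between -1.003 and 0.90.

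The widest gaps among the 33 were those of MET6 at 75 min and MET8 at 45 min. MET6 stood at -1.55 and -1.84 in 4P and -0.58 and -0.80 in WT at 75 min. The difference was -1.003 (95% interval -1.72 to -0.29, adjusted p 0.0846 in limma's test). MET6 and MET8 were picked here for their wide gaps, and their intervals are not adjusted for that choice. With replicate number in the fit the call changed, to an adjusted p of 0.0222, and MET10 (-0.47, 0.0396) and HOM3 (-0.46, 0.0256) were called lower at 75 min too, where the background was 7.03% lower. In that fit MET6 was also called lower over the whole course (-0.48, adjusted p 0.00891, background 6.49% lower) and HOM6 higher (0.35, adjusted p 0.0370, background 6.03% higher). Without either 4P array at 105 min, HOM3 and MET6 at 75 min passed at 0.0494. Without replicate 2 at 105 min MET13 (0.78, adjusted p 0.0213) and MUP1 (1.05, adjusted p 0.00977) also passed at 105 min, where 4P then rests on the array with the most outlier-marked spots. HOM3 had the opposite sign in the scanner's own ratios, at 0.20.

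MUP1 had the smallest unadjusted p of the 33 for a difference that depended on time, 0.000254, with an adjusted p of 0.122. With replicate number in the fit its adjusted p was 0.0477 (background 0.483%), and without 4P at 105 min, replicate 2, it was 0.0269. At 15 min MUP1 read -0.40 and -0.20 in 4P and -1.15 and -0.76 in WT, and at 105 min 1.17 and 0.59 in 4P and 0.22 and 0.04 in WT. At 75 min it was lower in 4P, at -0.85 and -0.86 against -0.34 and -0.24 in WT. The difference thus pointed upward at 15 min (0.66, 95% interval 0.24 to 1.07) and 105 min (0.75, 0.34 to 1.17) and downward at 75 min (-0.56, -0.98 to -0.15). These intervals are unadjusted. In limma's fit without replicate number none of these times was called (adjusted p 0.147 at 15 min, 0.146 at 105 min and 0.0968 at 75 min). MET8 at 45 min read 0.30 and 0.57 in 4P and -0.69 and -0.25 in WT. The difference was 0.90 (unadjusted 95% interval 0.35 to 1.46, adjusted p 0.429 in limma's test).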

How the data were processed

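RNA was hybridised to 32 Agilent 2-colour arrays, and per the labels RNA was amplified by in vitro transcription. The deposited scanner files hold the intensity of each spot in both channels and its log10 ratio (Cy5 over Cy3); the submitters' processing notes name Feature Extraction 10.7.1.1. The deposited series table gives log2 ratios whose values track the scanner's (r 0.961 to 0.999) with column medians of -0.04 to 0.02; the labels and headers used here do not give its normalisation. The median intensity of each spot was background-corrected (normexp, offset 50) and loess-normalised within arrays with limma 3.58.1 (R 4.3.3). Control and outlier spots were left out, and ratios were turned to synchronised over reference by the dye labels. Probes were kept where the synchronised channel stood well above background on both arrays of at least 1 group (6236 of 6256). Of 6225 systematic names 5737 matched a reference symbol table. A fit of 16 group means gave F tests over time, 4P minus WT at each time, their dependence on time, and steps between neighbouring times; whole-course shifts compared 2 against 2 course means. P-values were Benjamini-Hochberg adjusted over 6205 genes, at 0.05; the median SE of a difference was 0.19. The number of arrays limits the precision.

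The members and all lists were chosen with earlier results of these data known. All 34 members are accounted for by role, with array values for those past a test, MET17 and the regulators, plus the 10 most similar genes. Same-numbered replicates share a dye orientation, per the series' design text, so numbers pair the samples; deviations of same-numbered 4P and WT arrays correlated at 0.0500 to 0.372 over the 8 times. Whether duplicate courses came from separate cultures is not stated, so p-values measure the spread between these arrays. Alternatives were replicate number, time course or slide in the fit, the scanner and deposited ratios, median centring, no background correction, other filters, and leaving out arrays. No sequence or genome coordinate was used here.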

Additional observations from a re-analysis of the deposited data

How the results depend on the processing

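Counts over time stayed between 21 and 26 members in 4P (22 to 25 with each array left out) and 20 and 25 in WT (20 to 23), and steps between neighbouring times between 45 and 80 in 4P (50 to 68) and 50 and 67 in WT (44 to 56). The replicate block, that is replicate number as a term in the fit, gave 3 single-time differences other than MET17, 1 difference that depended on time and 3 whole-course shifts; calls it changed for named genes stand beside them. The time course as a random block (consensus correlation 0.241) gave 1 difference that depended on time (MUP1, adjusted p 0.0299). Scanner ratios gave 13 single-time differences, 5 of them other than MET17. The deposited table also gave 5 other than MET17, and in both these were MET14, MET10, MET6, MET13 and STR2 at 75 min. Shares of all genes called were taken only for the fits with and without replicate number. At 75 min these were 9.09% higher and 7.03% lower with it, and 2.68% and 2.3% without it. Counts under the other settings have no background beside them, so they do not show whether the members stand out. HOM3 at 75 min reversed, to 0.20 with scanner ratios and 0.205 with the deposited table. Median centring gave 0 whole-course shifts. Probes well above background on all arrays gave 0 single-time differences and 0 shifts, since that filter removes MET17. Leaving out the 2 arrays with the most outlier-marked spots gave 2 differences other than MET17. With each array left out, single-time differences numbered 8 to 12, those other than MET17 0 to 4, differences that depended on time 0 to 1, and whole-course shifts 1 to 1; leaving out an array also unbalances the dyes of its group. The causes were not tested. MET17 differences at single times kept their call under every alternative run that kept its probe, at 3.22 to 5.82, and the deposited table gave no MET17 difference at 0 min. Signal over background limits MET17 in WT and SUL1; slide and whole course could not be fitted together.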
